A study of Homo sapiens with 4 samples.

Results

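Aminoacyl-tRNA synthetases are the enzymes that join each amino acid to its transfer RNA. The genes described here are 38 listed members of that family and its scaffolds, of which 22 act in the cytosol and 16 in mitochondria. They were chosen by name, not by their values: every probe set whose only gene symbol in the platform annotation was a listed one, older aliases included, and, where a gene had several, the brightest of them by its 4-array mean. This gave 35 of the 38 genes, 20 cytosolic and 15 mitochondrial, among 22395 genes on the array. AIMP2 and EEF1E1 had no probe set named for them here, and the probe sets for SARS2 were also named for FBXO17, so these 3 genes were left out.

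The cells were Huh7, an established human hepatocellular carcinoma line. They were transfected with pcFLAG-hSTYK1, a plasmid that carries human STYK1, or with the plasmid pcFLAG as control. STYK1 is a receptor-like protein kinase, and the comparison asks which transcripts differ when it is overexpressed. There were 2 STYK1 and 2 control arrays, with 1 value per array for each of 53617 probe sets, taken as log2 signal. The sources used here do not give the time after transfection, the share of cells that took up plasmid or whether replicates came from separate cultures. A p-value therefore reflects only how far these arrays scatter, which may be technical. In such bulk RNA, fewer cells that respond and a smaller change per cell cannot be told apart.

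Most synthetases recognise 1 amino acid and the tRNAs that belong to it. Cytosolic and mitochondrial protein synthesis mostly use separate synthetases, encoded by separate nuclear genes, while GARS1 and KARS1 each make both forms. In the cytosol several synthetases join the scaffold proteins AIMP1, AIMP2 and EEF1E1 in the multisynthetase complex. When uncharged tRNA builds up, the kinase GCN2 phosphorylates eIF2alpha, translation of the transcription factor ATF4 goes up, and ATF4 switches on genes for amino acid synthesis, amino acid uptake and many cytosolic synthetases. In these genes ATF4 binds the C/EBP-ATF response element, or CARE.

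Because many synthetase genes are known ATF4 targets, their promoters were searched for this element, written TGATGNAAN or, on the other strand, NTTNCATCA, with N for any base. The sequences are RefSeq's for GRCh38.p14 and run from 250 bases before to 50 bases after each annotated start; 33 of the 38 genes had 45 such entries between them, and AARS2, LARS1, VARS1, VARS2 and YARS1 had none. The element was found in 7 of 19 cytosolic genes (36.8%) and in 1 of 14 mitochondrial genes (7.14%), against 4.45% of all 27305 genes and 3.61% of all 35116 promoters. All 7 cytosolic genes belong to the 13 synthetase genes listed as known ATF4 targets, of which 10 had a promoter entry, and 0 of the 6 cytosolic genes listed as not known targets held it. A match is a stretch of letters and not a shown binding site. The list of known targets may itself rest partly on such elements, so the list and the matches may not be independent. With 4.45% of all genes holding the element, 0 of 6 genes tells little. The matches are printed below with 10 flanking bases, in the direction of transcription, with the element in capitals, because they show the element where it was found.
AARS1: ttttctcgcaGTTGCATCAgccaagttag
CARS1: cggggcggcgGTTGCATCAgattctagga
GARS1: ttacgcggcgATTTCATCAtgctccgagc
IARS1: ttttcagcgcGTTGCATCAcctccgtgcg
MARS1: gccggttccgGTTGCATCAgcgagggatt
NARS1: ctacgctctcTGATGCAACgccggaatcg
TARS1: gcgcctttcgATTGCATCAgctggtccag
YARS2: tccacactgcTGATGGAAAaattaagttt

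Of the 8 matches, 6 carry the letters TGATGCAA, or TTGCATCA on the other strand, which lie inside the longer element and occur in 1.08% of all genes' promoters. They are AARS1, CARS1, IARS1, MARS1, NARS1 and TARS1, all of them cytosolic. Counted from the first transcribed base as 1, with no position 0, the element began at -188 in AARS1 (chr16:70289676-70289704, minus strand), -34 in GARS1 (chr7:30594834-30594862, plus strand) and -14 in IARS1 (chr9:92293693-92293721, minus strand). It spanned the start in CARS1 (from -3, chr11:3057408-3057436, minus strand) and in MARS1 (from -5, chr12:57488053-57488081, plus strand). It lay just inside the transcript in TARS1 (from 2, chr5:33440956-33440984, plus strand) and NARS1 (from 15, chr18:57621804-57621832, minus strand), and at -197 in YARS2 (chr12:32756076-32756104, minus strand), the mitochondrial tyrosyl-tRNA synthetase. AARS1 is shown with its 250 upstream bases (chr16:70289507-70289756, minus strand), because its element lies farthest from the start among the cytosolic genes.
AARS1 upstream: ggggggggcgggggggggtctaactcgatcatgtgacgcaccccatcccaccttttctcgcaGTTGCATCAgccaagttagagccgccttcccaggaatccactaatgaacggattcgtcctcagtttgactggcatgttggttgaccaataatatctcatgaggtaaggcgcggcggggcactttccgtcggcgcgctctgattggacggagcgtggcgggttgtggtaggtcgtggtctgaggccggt

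STYK1 itself read 7.40 and 7.86 in the STYK1 arrays, against 0.26 and 0.61 in the control arrays (limma, adjusted p = 0.0373). The call ended with the replicate number as a block (limma, adjusted p = 0.0637) and with any array left out (limma, adjusted p 0.347 to 0.724). The control values lay below the floor of 0.753, so STYK1 was at least 118-fold higher in STYK1 cells. The floor was taken as background and set at the 95th percentile of the signals of 432 probe sets for olfactory receptors (mean over the arrays). Array medians lay between 0.615 and 0.629, and correlations between arrays between 0.985 and 0.987. Of the hepatocyte markers 9 of 9 measured lay above the floor, among them ALB at 10.53 and AFP at 9.30 (means over 4 arrays), and of the markers of other cells 1 of 7, COL1A1 at 0.82, with PTPRC at 0.41 and VWF at 0.53.

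No synthetase gene passed the test between STYK1 and control cells. By limma 0 of 35 passed an adjusted p of 0.05, against 0.00187% of all probe sets, and adjusted p-values began at 0.979. Without adjustment 0 of 35 had a p under 0.05, against 4.64% of all probe sets and 832 of all 22395 genes. The fitted difference lay above 0 for 23 genes and below 0 for 12, with a median of 0.07, beside 0.00 over all genes. The 2 groups did not overlap for 8 genes, 4 with STYK1 above and 4 with STYK1 below. That is 22.9% of the 35, against 32.9% of all genes, of which 16.7% had STYK1 above and 16.2% STYK1 below. Standard errors ran from 0.08 to 0.31 log2 units and every one of the 35 intervals (95%, limma) included 0. For 33 genes the interval stayed within a 2-fold difference either way, and for CARS1 and WARS1 it reached 1.02 and 1.04.

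**Figure D1:**
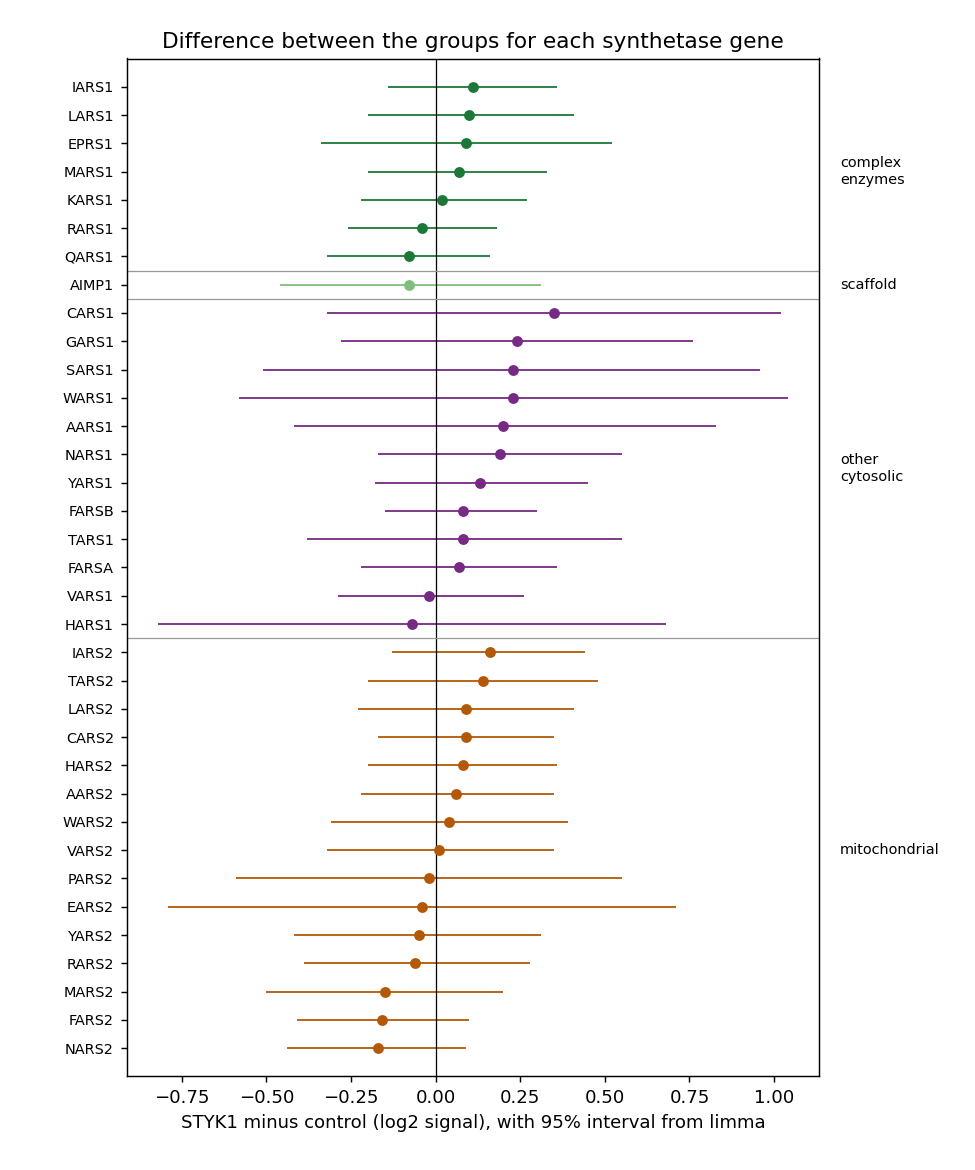
Differences in log2 signal, STYK1 minus control, for the 35 synthetase genes, grouped by role and ordered by size; points are limma estimates from 2 arrays a group and bars their 95% intervals. All 35 bars cross 0, and the widest belong to WARS1, HARS1, EARS2 and SARS1.

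The enzymes of the multisynthetase complex lay close together in both groups. Their 7 differences ran from -0.08 to 0.11 with a median of 0.07, 5 above 0 and 2 below. EPRS1, the glutamyl-prolyl-tRNA synthetase that charges both amino acids, read 7.67 and 7.28 in the STYK1 arrays, against 7.29 and 7.47 in the control arrays. IARS1, the isoleucyl enzyme, read 7.22 and 7.09 in the STYK1 arrays, against 7.01 and 7.08 in the control arrays, so its groups lay only just apart. LARS1, the leucyl enzyme that also serves as a leucine sensor for mTORC1, read 6.32 and 6.07 in the STYK1 arrays, against 6.10 and 6.09 in the control arrays. In each of the 3 genes STYK1 replicate 1 was the highest array, and the other STYK1 array lay among or next to the controls. QARS1 and RARS1, the glutaminyl and arginyl enzymes, lay slightly lower in both STYK1 arrays, by -0.08 (interval -0.32 to 0.16) and -0.04 (interval -0.26 to 0.18). MARS1, the methionyl enzyme, and KARS1, the lysyl enzyme, differed by 0.07 and 0.02. The scaffold AIMP1 read 6.66 and 6.38 in the STYK1 arrays, against 6.48 and 6.72 in the control arrays, with its highest value in a control.

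The largest differences of all lay among the cytosolic enzymes outside the complex, and wide gaps between replicates came with them. Of the 12, 10 lay above 0 and 2 below, with a median of 0.16 and a range from -0.07 to 0.35. CARS1, the cysteinyl enzyme, read 2.54 and 2.00 in the STYK1 arrays, against 1.66 and 2.18 in the control arrays, 0.35 ± 0.26 higher (limma estimate ± standard error; adjusted p = 0.979). GARS1, the glycyl enzyme, read 7.04 and 6.57 in the STYK1 arrays, against 6.43 and 6.70 in the control arrays. SARS1, the seryl enzyme, read 5.08 and 4.53 in the STYK1 arrays, against 4.28 and 4.89 in the control arrays. These genes share 1 order of arrays: STYK1 replicate 1 was highest, control replicate 2 next, then STYK1 replicate 2, and control replicate 1 lowest.

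AARS1, the alanyl enzyme, had the same order, with 8.85 and 8.36 in the STYK1 arrays, against 8.17 and 8.63 in the control arrays. So did WARS1, the tryptophanyl enzyme that interferon gamma also induces, with 3.41 and 2.73 in the STYK1 arrays, against 2.53 and 3.15 in the control arrays. NARS1, the asparaginyl enzyme, read 8.31 and 7.97 in the STYK1 arrays, against 7.94 and 7.97 in the control arrays, and it differed from the controls through STYK1 replicate 1 alone. FARSA and FARSB encode the subunits of the phenylalanyl enzyme and are not known as ATF4 targets. They differed by 0.07 and 0.08, and FARSA was highest in STYK1 replicate 2 while FARSB was highest in STYK1 replicate 1.

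**Figure D2:**
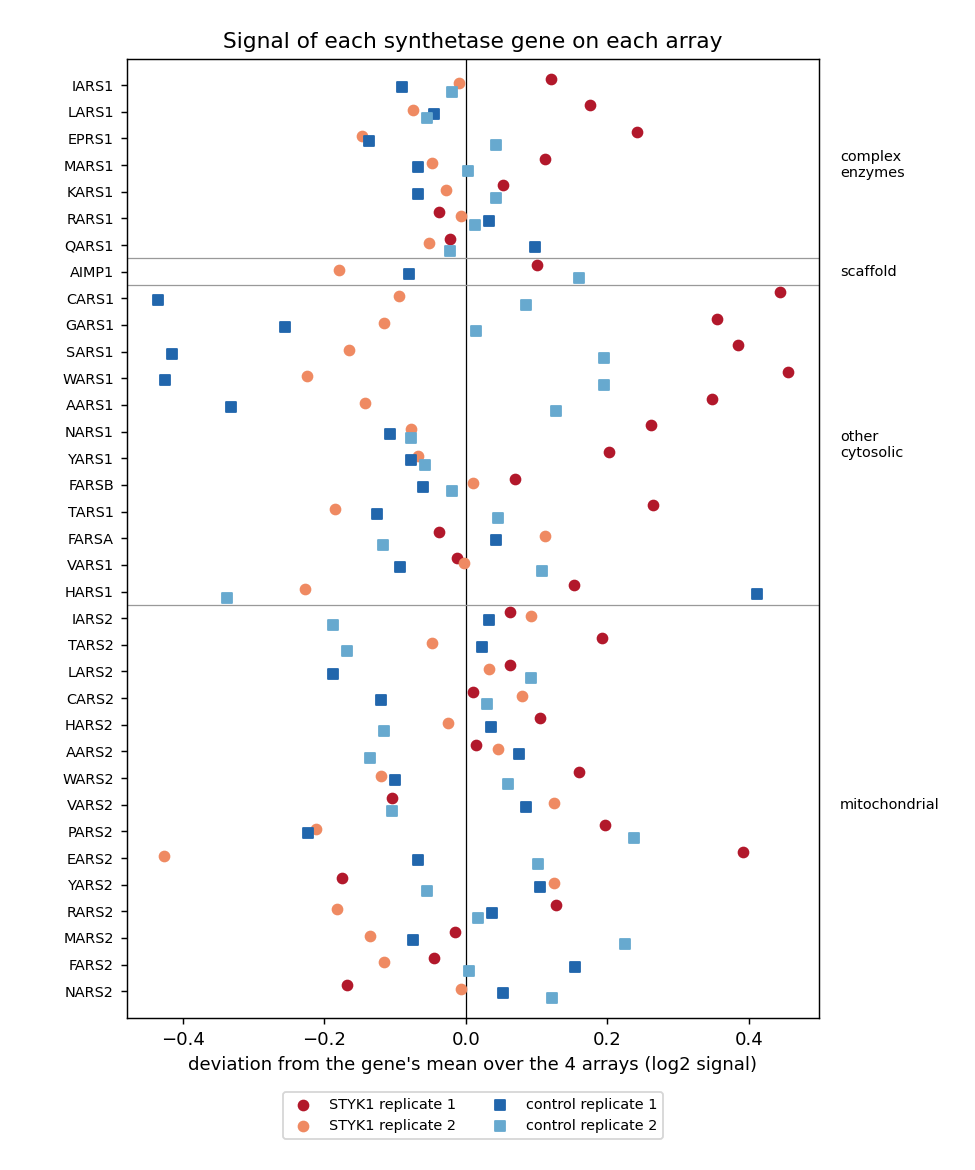
Deviation of each array from the gene's mean over the 4 arrays, in log2 signal, for the 35 synthetase genes grouped by role; circles are STYK1 arrays and squares control arrays, set at slightly different heights for visibility. In CARS1, GARS1, SARS1, WARS1 and AARS1 the circles and squares alternate, and STYK1 replicate 1 lies at the far right.

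The mitochondrial enzymes were spread evenly around 0. Of the 15, 8 lay above 0 and 7 below, with a median of 0.01 and a range from -0.17 to 0.16. NARS2, the mitochondrial asparaginyl enzyme, read 4.65 and 4.81 in the STYK1 arrays, against 4.87 and 4.94 in the control arrays, and its unadjusted p of 0.152 was the smallest of the 35 genes (limma, adjusted p = 0.979). IARS2, the mitochondrial isoleucyl enzyme, read 5.64 and 5.67 in the STYK1 arrays, against 5.61 and 5.39 in the control arrays. FARS2, the mitochondrial phenylalanyl enzyme, read 1.37 and 1.30 in the STYK1 arrays, against 1.57 and 1.42 in the control arrays. The groups did not overlap in these 3 genes, IARS2 being higher and the others lower in STYK1 cells, and none passed the test. With these 3 of 15, or 20.0%, the share was below the 32.9% of all genes.

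EARS2 and PARS2, the mitochondrial glutamyl and prolyl enzymes, had wide replicate gaps. EARS2 read 3.43 and 2.61 in the STYK1 arrays, against 2.97 and 3.14 in the control arrays, so both extremes were STYK1 arrays. PARS2 read 1.20 and 0.79 in the STYK1 arrays, against 0.78 and 1.24 in the control arrays, and the lower array of each group lay close to the floor. VARS2, the mitochondrial valyl enzyme, had 7 probe sets with differences from -0.10 to 0.09, and 2 of them held equal values on all 4 arrays. A further, brighter probe set was named for both VARS2 and GTF2H4 and was not used; it read 3.36 and 3.44 in the STYK1 arrays, against 3.07 and 3.24 in the control arrays, a difference of 0.24 with the groups apart. Its cytosolic counterpart VARS1 had 2 probe sets, with differences of -0.17 and -0.02.

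HARS1 and HARS2, the cytosolic and mitochondrial histidyl enzymes, start on opposite strands with 84 bases between their annotated starts (chr5:140691371-140691454, plus strand, in which HARS2 is read left to right). The stretch is printed because both genes are read from it, and the search found no CARE letters in either promoter.
HARS1-HARS2: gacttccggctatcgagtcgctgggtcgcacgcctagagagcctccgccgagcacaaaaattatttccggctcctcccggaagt

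HARS1 read 1.33 and 0.95 in the STYK1 arrays, against 1.59 and 0.84 in the control arrays. HARS2 read 1.99 and 1.86 in the STYK1 arrays, against 1.92 and 1.77 in the control arrays. Both genes were higher on the array numbered 1 of each group, and the groups overlapped in both. HARS1 had the widest control gap of the cytosolic genes and lay near the floor on its lowest array.

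Set against each other, the cytosolic members lay a little higher than the mitochondrial ones in STYK1 cells, by less than the arrays of 1 group differed. The median difference was 0.09 over 20 cytosolic genes and 0.01 over 15 mitochondrial genes, beside 0.00 over all genes. Measured as deviation from each gene's own mean, the cytosolic set minus the mitochondrial set was 0.13 and -0.03 in the STYK1 arrays, against -0.10 and 0.01 in the control arrays. The group means were 0.05 ± 0.11 in STYK1 cells and -0.05 ± 0.08 in control cells (SD, n = 2 each), a difference of 0.09, and the arrays overlapped. No p is given for this score, and 2 arrays against 2 cannot go below an exact two-sided p of 0.333. Without STYK1 replicate 1 the cytosolic median was -0.02 and the difference between the sets 0.01. The signals themselves, with 1.18 to 8.50 among cytosolic and 1.00 to 5.58 among mitochondrial genes (means over 4 arrays), come from different probe sets and do not rank the genes.

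The cytosolic genes known as ATF4 targets varied together between replicate arrays of 1 group, and their difference between the groups was small beside that. For the 13 genes the median of STYK1 replicate 1 minus STYK1 replicate 2 was 0.39 and that of control replicate 2 minus control replicate 1 was 0.19, while the median STYK1 minus control was 0.13. In all 13 the wider replicate gap was larger than the group difference, which held for 78.3% of all genes. STYK1 replicate 1 was the highest array in 12 of the 13 (92.3%), against 26.5% of all genes and 30.2% of the 11332 genes above the floor. VARS1 was the exception. An order with STYK1 replicate 1 highest was first noticed in CARS1, GARS1, SARS1, AARS1 and WARS1, all among the 13. The count of 12 was therefore partly fixed beforehand. Averaged over the 13 genes, the deviation was 0.26 and -0.10 in STYK1 replicates 1 and 2, against -0.20 and 0.05 in control replicates 1 and 2. Without STYK1 replicate 1 the median STYK1 minus control was -0.01, and without control replicate 1 it was 0.03.

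In 11 of these 13 genes (84.6%) STYK1 replicate 1 exceeded STYK1 replicate 2 and control replicate 2 exceeded control replicate 1. The count goes by sign alone, and the gaps were uneven. Control replicate 1 minus control replicate 2 was only -0.02 in YARS1 and -0.03 in NARS1, against -0.61 in SARS1 and WARS1. The combination was noticed in the data. It held for 26.4% of all genes and for 30.7% of genes above the floor. It also held for 5 of 15 mitochondrial enzymes (33.3%) and for 2 of the 6 cytosolic enzymes not known as ATF4 targets (33.3%). Those 6, FARSA, FARSB, HARS1, KARS1, QARS1 and RARS1, had a median difference of -0.01 between the groups. Their mean deviations were 0.03 and -0.03 in the STYK1 arrays, against 0.08 and -0.07 in the control arrays. The control means come mostly from HARS1, with 1.59 and 0.84 in the control arrays, the latter near the floor. Over all genes above the floor the mean deviations were 0.02 and -0.01 in the STYK1 arrays, against -0.01 and 0.00 in the control arrays. The genes share their 4 RNA samples, so they are not independent of each other.

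**Figure D3:**
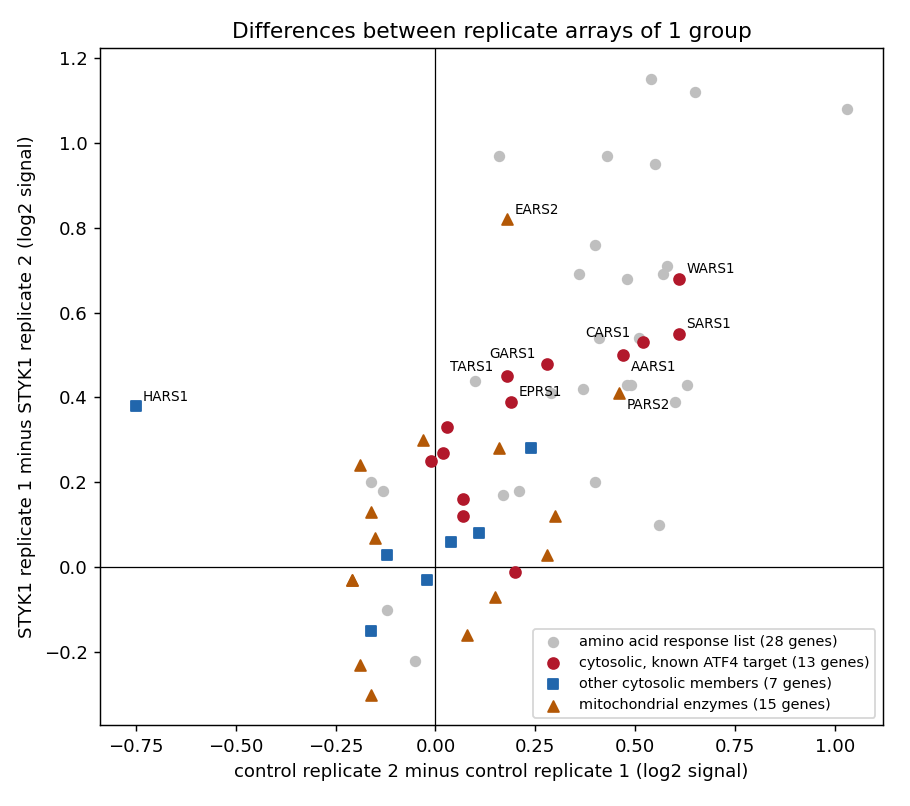
Gap between the replicate arrays of each group, in log2 signal: control replicate 2 minus control replicate 1 on the horizontal axis and STYK1 replicate 1 minus STYK1 replicate 2 on the vertical axis, with a point per gene and labels on the widest gaps. Of the 13 known ATF4 targets among the cytosolic synthetases 11 lie to the upper right of the 0 lines, together with 24 of the 28 amino acid response genes.

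Genes of the wider amino acid response mostly shared the direction of both replicate gaps, and the gaps were larger. Of 28 measured genes 0 passed the adjusted test, 21 lay above 0 and 7 below, with a median difference of 0.10 that turned to -0.12 without STYK1 replicate 1 and to -0.04 without control replicate 1. An unadjusted p under 0.05 was found for 2 (limma), against 4.64% of all probe sets and 832 of all 22395 genes. In 24 of them (85.7%) STYK1 replicate 1 exceeded STYK1 replicate 2 and control replicate 2 exceeded control replicate 1. The full order of the 4 arrays seen in AARS1 and WARS1 held for 11 of the 28 (39.3%). It held for 7 of the 13 synthetase genes known as ATF4 targets (53.8%). That order was first noticed in CARS1, GARS1, SARS1, AARS1 and WARS1, all among the 13, so the count of 7 was partly fixed beforehand. It held for 5.14% of all genes, for 6.72% of genes above the floor and for 0 of 15 mitochondrial enzymes. Over the 28 genes the mean deviation was 0.32 and -0.20 in the STYK1 arrays, against -0.25 and 0.12 in the control arrays. PPP1R15A, which recruits the phosphatase that reverses eIF2alpha phosphorylation, read 2.48 and 2.28 in the STYK1 arrays, against 1.48 and 1.88 in the control arrays, and STC2, a secreted glycoprotein induced by stress, read 6.50 and 6.30 in the STYK1 arrays, against 6.15 and 5.99 in the control arrays. These are the 2 genes with an unadjusted p under 0.05 (0.00986 and 0.0398; limma, adjusted p = 0.979 for both).

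SLC7A11, the cystine importer, read 7.78 and 7.35 in the STYK1 arrays, against 7.04 and 7.52 in the control arrays. ASNS, asparagine synthetase, read 5.59 and 4.61 in the STYK1 arrays, against 4.54 and 4.96 in the control arrays. ATF4 mRNA, whose protein is controlled mainly in translation, read 7.13 and 6.94 in the STYK1 arrays, against 7.14 and 7.01 in the control arrays. Its 4 values thus lay close together, while ASNS had the order seen in AARS1 and WARS1. ASNS and ATF4 were chosen with their values in view. The part of RNA quality, culture state or array handling in this order was not tested.

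**Figure D4:**
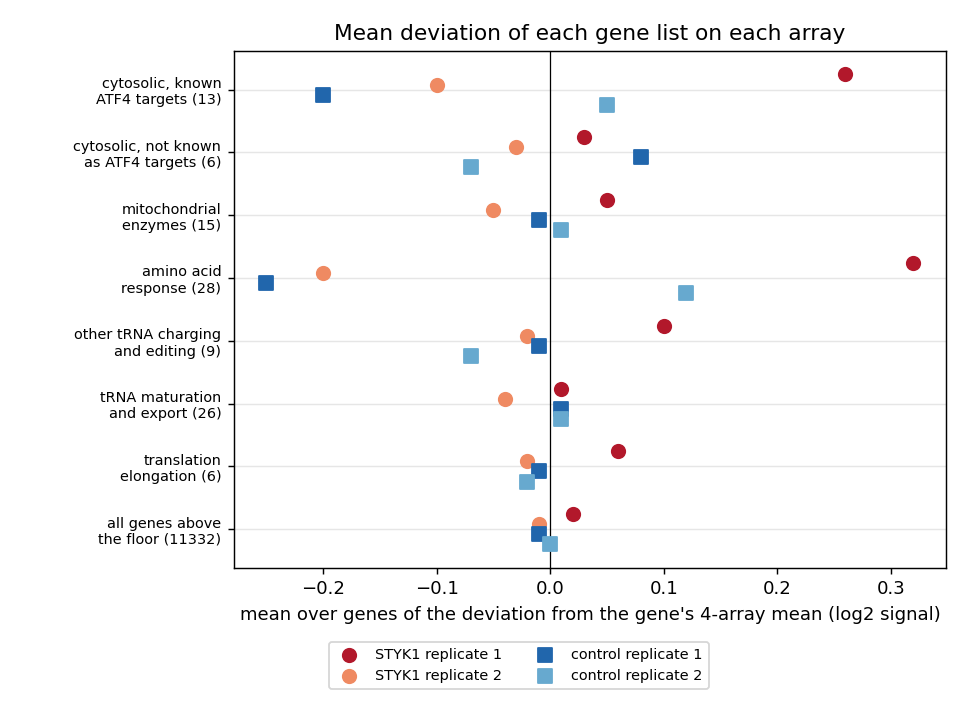
Mean over the genes of each list of the deviation from the gene's 4-array mean, in log2 signal, for each array; circles are STYK1 arrays, squares control arrays, and the number of genes stands in parentheses. The known ATF4 targets among the synthetases run from -0.20 to 0.26 and the amino acid response genes from -0.25 to 0.32. The mitochondrial enzymes stay between -0.05 and 0.05, a mean that does not show the wide replicate gaps of EARS2 and PARS2. Median signals of these lists were, in the same order, 6.23, 4.97 and 3.04.

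Other genes of tRNA charging and use gave 0 that passed the adjusted test. Among 9 further genes of charging and editing 7 lay above 0 and 2 below, with a median of 0.15. Of the 9, 2 had an unadjusted p under 0.05 (limma), against 4.64% of all probe sets and 832 of all 22395 genes. TARS3, threonyl-tRNA synthetase 3, read 1.22 and 1.19 in the STYK1 arrays, against 0.85 and 0.89 in the control arrays. Its unadjusted p was 0.012 (limma, adjusted p = 0.979), and all its values lay near the floor. QRSL1, a subunit of the amidotransferase that completes mitochondrial glutaminyl-tRNA, read 5.18 and 5.03 in the STYK1 arrays, against 4.82 and 4.84 in the control arrays (unadjusted p = 0.0387; limma, adjusted p = 0.979). Both were picked by smallest p, which goes with close replicates and groups apart. Among the 9 genes the groups lay apart for 2 with STYK1 above and 1 below (33.3%), against 32.9% of all genes. DTD1, which clears D-amino acids from tRNA, read 4.03 and 3.33 in the STYK1 arrays, against 4.09 and 4.25 in the control arrays.

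Among 26 genes of tRNA maturation and export 10 lay above 0 and 16 below, with a median of -0.07. The tRNA methyltransferase TRMT1 differed by -0.20 and the mitochondrial RNase P nuclease PRORP by -0.16. The tRNA deaminase subunit ADAT3 read 0.84 and 0.80 in the STYK1 arrays, against 0.50 and 0.73 in the control arrays, where it lay below the floor. XPOT, the nuclear exporter of tRNA, read 7.76 and 7.36 in the STYK1 arrays, against 7.19 and 7.41 in the control arrays. It was chosen with its values in view, and its arrays stood in the order seen in AARS1 and WARS1. Of 11 listed elongation factors 6 were measured, without EEF1A1, EEF1B2, EEF1G, TUFM and GFM2. Of these 6, 4 lay above 0 and 2 below. TSFM, the mitochondrial exchange factor, differed by -0.29, GFM1, a mitochondrial elongation factor, by 0.17 and EIF5A by 0.25. TSFM and EIF5A were dim, with means of 1.42 and 1.19 over the 4 arrays against the floor of 0.753.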

How the data were processed

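RNA of 2 STYK1 and 2 control samples was amplified, labelled with biotin and measured with Affymetrix whole-transcript reagents, as the labels' protocols state. The values deposited by the authors stand in 1 table and were read here as log2 signals: as natural logarithms its largest value would stand for 84779, above the 65535 of a 16-bit scanner. Per the submitters' processing notes the software was Transcriptome Analysis Console; the sources used here do not give its version, summarization or normalization. Array background correction can shrink differences of dim genes. Groups follow the titles. No array copied another: values were equal at 171 probe sets in the STYK1 pair and at 242 in the control pair, against 170 to 227 between groups.

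A single gene symbol was given for 23871 of 53617 probe sets, and 90 symbols were updated through Entrez ID and RefSeq (GRCh38.p14). Groups were compared with limma 3.58.1 in R 4.3.3 (lmFit, eBayes, two-sided, Benjamini-Hochberg over all probe sets), with 2 residual and 2.71 prior degrees of freedom. The same fit was also run on simulated data with the means and spread of these arrays. The number of arrays limits the precision. The members, lists and tests were chosen with earlier results of these data known. Values per array are given for the 3 largest differences and the highest signal in each role, any gene with an unadjusted p under 0.05, HARS1 and HARS2. Of each further list up to 3 genes were chosen by smallest p. Among them TRMT1, PRORP, TSFM, GFM1 and EIF5A are given by their difference only. WARS1, NARS1, EARS2, PARS2, ASNS, ATF4 and XPOT were added after their values were seen. Alternatives were a replicate block, quantile normalization, a floor filter, an intensity trend, averaged probe sets, changed member sets and each array left out. Which genes are known ATF4 targets is background knowledge, not from these files.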

Additional observations from a re-analysis of the deposited data

How the results depend on the processing

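In all 9 alternatives 0 members passed the adjusted threshold (limma). The fitted STYK1 difference was 6.96 to 7.42 with each array left out, and its call ended each time (limma, adjusted p 0.347 to 0.724); with the replicate number as a block it was 7.19 at an adjusted p of 0.0637. Because the controls lay below the floor these fitted values are no measured size; the bound was at least 101-fold to at least 138-fold higher with each array left out. The cause was not tested. With the block 0 members had an unadjusted p under 0.05. The labels do not say that the numbers pair arrays, and same-numbered arrays deviated with a correlation of -0.044 over all probe sets. With each array left out, 0 to 1 members had an unadjusted p under 0.05: EARS2 without STYK1 replicate 1 and NARS1 without STYK1 replicate 2. The mitochondrial median ran from -0.04 to 0.10, the cytosolic from -0.02 to 0.20, that of the known ATF4 targets from -0.01 to 0.31 and that of the amino acid response from -0.12 to 0.36; for each of these 4 the leave-one-out fits held a value on either side of 0, and the lone array of a group was assumed to vary like the other group. Otherwise the cytosolic median lay between 0.07 and 0.09, the mitochondrial between -0.03 and 0.02, and the cytosolic minus mitochondrial difference between 0.08 and 0.10. The alternatives for the ATF4 target and amino acid response lists were chosen after seeing the data; with quantile normalization the shared replicate order held for 10 of 13 and 24 of 28 genes.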

Other observations

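A total of 4 probe sets of the listed genes were left out because they carry a second gene name. A probe set named for SARS2, the mitochondrial seryl enzyme, and FBXO17 read 4.80 and 4.30 in the STYK1 arrays, against 4.34 and 4.55 in the control arrays, and another of the same names read 2.18 and 2.21 in the STYK1 arrays, against 2.42 and 2.11 in the control arrays. The brighter probe set was highest in STYK1 replicate 1, and the dimmer in control replicate 1. For VARS2 and GTF2H4, 1 probe set lay higher in both STYK1 arrays, by 0.24, and the other read 1.88 and 1.88 in the STYK1 arrays, against 2.08 and 1.87 in the control arrays.

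Outside the synthetases, 6 of 24 amino acid response genes with a promoter entry held the CARE letters (25%), against 4.45% of all genes: ATF3, ASNS, CHAC1, SLC3A2, SLC7A1 and CEBPG. Of these, CHAC1 and CEBPG held the letters TGATGCAA, which 6 of the 10 known ATF4 targets among the synthetases with an entry also held.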
